A study of Mus musculus with 12 samples.

Results

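Tnfrsf12a encodes the receptor of the cytokine TWEAK, and its signal was higher in both lines of MHC-CELFΔ mice than in wild type hearts. It is described here together with its ligand Tnfsf12 and 8 further genes of the tumor necrosis factor (TNF) receptor family. The question asked was whether its higher level is shared by the ligand or by other receptors. The members were 10 genes, taken as every probe whose annotation names one of them. These were 23 of the 45281 probe IDs of the array. IDs whose values were the same on every array were merged, and 12 of 30854 features were left, for 10 of the 19013 genes measured. Each of the 10 genes had at least 1 feature, and no filter on low values was applied. The set was chosen on the measured level of Tnfrsf12a, which differed between the transgenic lines and the wild type in these arrays. Its differences from wild type are therefore given as a description, without a test.

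CELF proteins are RNA-binding regulators of splicing. The transgene of MHC-CELFΔ mice encodes a dominant negative form that stays in the nucleus, and the α-myosin heavy chain promoter drives it in heart muscle cells. RNA was from whole hearts of 3-week-old FVB/N females, 1 heart per array. The mild line (MHC-CELFΔ-574) and the severe line (MHC-CELFΔ-10) were each represented by 3 transgenic hearts and by 3 hearts of wild type littermates, giving 12 arrays. The 6 wild type hearts were pooled as controls, so both comparisons with wild type share the same control arrays. A difference between the lines cannot be told apart from a difference between their litters, apart from what the littermates show. Median raw bead intensities per array ran from 106 to 123. They were 120 to 123 in the severe line, 106 to 110 in the mild line and 106 to 117 in wild type. Raw intensities of dim features are therefore not directly comparable between the groups. All 7 measured markers of heart muscle cells were in the top 5 percent of features by signal.

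TNF family ligands are membrane-bound or released cytokines that cluster trimeric receptors at the cell surface. One class of receptors carries a death domain and can start apoptosis, whereas other receptors bind TRAF adaptors and activate NF-kB. The TWEAK receptor, also called Fn14, is a small receptor of the TRAF-binding kind. It is known as a gene that is low in resting tissue and is induced by growth factors, injury and mechanical load, including in heart muscle cells.

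The Tnfrsf12a start region is shown because Tnfrsf12a is the gene on which the comparison turns. The 250 bases before its annotated start, on the minus strand of chr17:23677450-23677699 (RefSeq, GRCm38.p6), lie outside the transcript and read 5′ to 3′ as follows, with GC boxes (GGGCGG on either strand) in capitals.

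Tnfrsf12a: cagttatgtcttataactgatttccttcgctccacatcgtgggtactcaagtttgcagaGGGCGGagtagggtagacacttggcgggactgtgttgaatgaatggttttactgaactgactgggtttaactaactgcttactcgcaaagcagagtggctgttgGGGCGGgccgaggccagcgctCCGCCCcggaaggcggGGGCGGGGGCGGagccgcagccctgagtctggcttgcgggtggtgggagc

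The GC box occurred 5 times here, at 191, 87, 66, 50 and 44 bases before the start. It was present in 32.7% of 32851 mouse promoter windows of this length. No match was found to the AP-1 motif TGANTCA (6.75% of windows), the TATA box TATAAA (12.4%), the CArG box (1.47%) or the NF-kappaB motif (7.25%), searched on both strands. Of the other 9 members, 6 had a window in the table. Ltbr and Tnfrsf1b had 2 GC boxes each, Fas and Tnfrsf21 had 1 each, and Tnfrsf1a and Tnfsf10 had none. These matches describe letters in the windows and no binding was measured.

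Raw intensities of Tnfrsf12a ran from 580 to 968 in wild type hearts, from 1816 to 2206 in mild line hearts and from 1129 to 2188 in severe line hearts. After background correction and quantile normalization, the log2 signals of the littermates of the severe line were 9.17, 9.16 and 9.50, and those of the littermates of the mild line were 9.32, 9.16 and 9.92. The mild line hearts had 10.81, 11.15 and 10.88, and the severe line hearts had 10.32, 10.20 and 11.09. Every transgenic heart was thus above every wild type heart. The mild line values lay close together, whereas 1 severe line heart stood above the other two, inside the mild line's range. As a description of the choice, the mean was 9.37 ± 0.30 (SD, n = 6) in wild type, 10.95 ± 0.18 (SD, n = 3) in the mild line and 10.54 ± 0.48 (SD, n = 3) in the severe line. This was 2.98-fold above wild type in the mild line and 2.25-fold in the severe line. Among rises of 19013 genes, Tnfrsf12a took rank 7 in mild line hearts and rank 23 in severe line hearts. In whole hearts, more RNA per cell and more cells of a type that makes it cannot be told apart.

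**Figure D1:**
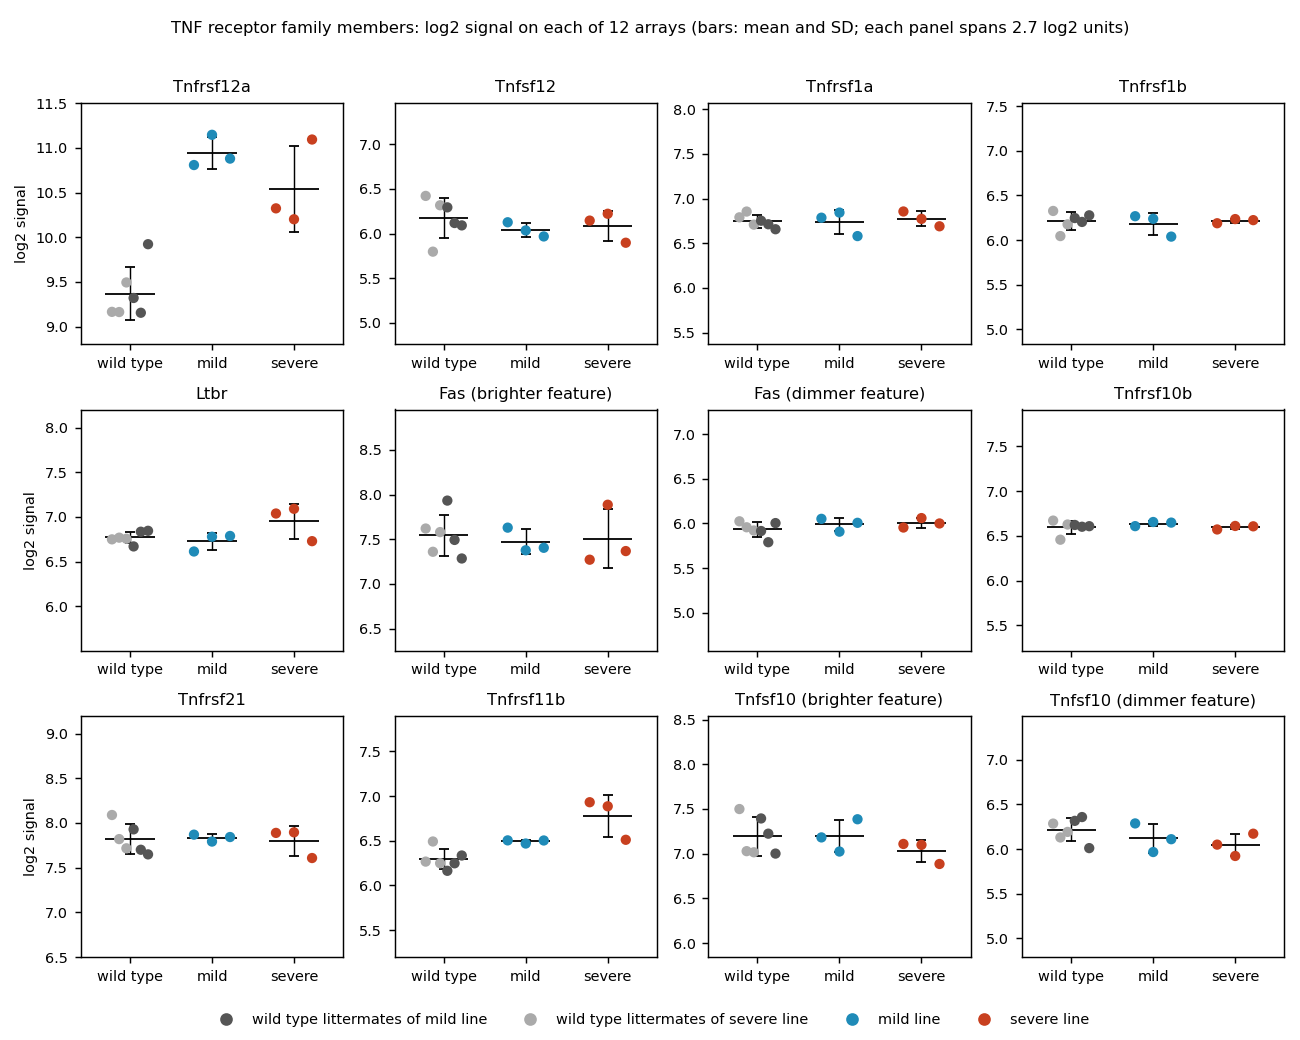
Log2 signal of the 12 features of the 10 members on each of 12 arrays (points), in wild type (n = 6, grey, 2 shades for the littermates of the mild and severe lines), mild line (n = 3, blue) and severe line (n = 3, red) hearts, with bars for the mean and SD. Each panel spans the same number of log2 units around its own values. The groups separate visibly for Tnfrsf12a, where every transgenic heart is above 10.20 and the wild type hearts reach up to 9.92, and by a smaller step for Tnfrsf11b in the severe line.

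The choice of Tnfrsf12a did not rest on the difference between the 2 lines or between the 2 sets of littermates, and these were tested. The mild line exceeded the severe line by 0.41 on the log2 scale (SE 0.20, 95% confidence interval -0.02 to 0.83), which did not pass the test (limma, adjusted p = 0.432), and the ranges of the lines overlapped. The littermates of the mild line exceeded those of the severe line by 0.19 (interval -0.23 to 0.62, limma, adjusted p = 0.818). Against its own littermates only, the mild line had a log2 difference of 1.48 and the severe line 1.27. The difference between these effects was 0.21 (interval -0.39 to 0.81, limma, adjusted p = 0.939). By mean level the order was wild type, severe line and mild line, of which the 2 lines did not differ beyond their spread.

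Tnfsf12, the gene of the ligand TWEAK, gave a dim signal, at percentile 31.6 of all features. Its raw intensities were 84.1 to 117 in wild type, 89.1 to 98.9 in mild line hearts and 99.6 to 113 in severe line hearts, which was below the array's own median intensity on 11 of 12 arrays. Its log2 signals ran from 5.80 to 6.42 (median 6.21) in wild type, and were 6.13, 6.03 and 5.97 in mild line hearts and 6.14, 6.22 and 5.90 in severe line hearts. The transgenic values all lay inside the wild type range. The log2 difference from wild type was -0.13 in the mild line (interval -0.36 to 0.10, limma, adjusted p = 0.738) and -0.085 in the severe line (interval -0.32 to 0.15, limma, adjusted p = 0.827). No detection p-value was used here, so whether this feature measured the ligand above background is not known, and these values do not show whether the ligand shared the rise of its receptor. With a smaller background offset of 16 the values were -0.23 in the mild line (adjusted p = 0.776) and -0.15 in the severe line (adjusted p = 0.845).

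Leaving out Tnfrsf12a, on which the set was chosen, 0 of the other 9 members were called by limma in the mild line (1 at an unadjusted p under 0.05) and 1 in the severe line (Tnfrsf11b, 2 at an unadjusted p under 0.05), at an adjusted p under 0.05 over all features. In comparison, 4.9% of all genes were called in mild line hearts and 4.49% in severe line hearts. The median log2 difference of these 9 was -0.009 in mild line hearts and -0.002 in severe line hearts, beside -0.001 and 0.001 over all genes. They each differed from wild type by less than 1.5-fold in both lines. Groups that did not overlap with wild type were found for 0 of 9 in mild line hearts and 1 of 9 in severe line hearts, beside 9.3% and 8.91% of all genes. Between the lines 0 members were called by limma (2 at an unadjusted p under 0.05, Tnfrsf11b and Ltbr), where 1.75% of all genes were called. Between the 2 sets of littermates 0 were called, beside 19 of all 19013 genes. At an unadjusted p under 0.05 there were 0, beside 2017 of all genes.

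Tnfrsf11b, encoding osteoprotegerin, a released decoy receptor that binds the ligands RANKL and TRAIL, rose in the severe line. Raw intensities were 102 to 121 in wild type and 158, 152 and 133 in the severe line, with 119, 115 and 116 in the mild line. The severe line arrays also had the highest raw medians. Log2 signals were 6.16 to 6.49 in wild type (median 6.26), 6.50, 6.47 and 6.50 in mild line hearts, and 6.93, 6.89 and 6.51 in severe line hearts. The severe line was above all wild type hearts, but 1 of its hearts was close to the highest wild type value and to the mild line. The rise was 0.48 on the log2 scale, or 1.40-fold (SE 0.089, interval 0.30 to 0.67, limma, adjusted p = 0.00338, higher in 3 of 3 hearts). In the mild line the difference was 0.20 (interval 0.01 to 0.39, limma, adjusted p = 0.352). The mild line was lower than the severe line by 0.28 without passing the test (interval -0.50 to -0.07, limma, adjusted p = 0.226), and without severe line replicate 3 the difference was -0.42 (adjusted p = 0.0403). That heart, the lowest of its line for Tnfrsf11b, was the highest of its line for Tnfrsf12a. Over deviations from group means, the correlation of the 2 genes was -0.52 on 12 arrays, given as a description. With a background offset of 16 the rise in the severe line came out at 0.76 (adjusted p = 0.0105). As for Tnfsf12, whether this feature was above background is not known.

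Osteoprotegerin is also made by smooth muscle cells and fibroblasts, some of whose markers differed between the groups. Of 7 markers of smooth muscle cells and pericytes, 3 rose in the severe line, beside 4.49% of all genes called. These were Tagln by 0.70, Acta2 by 0.62 and Cspg4 by 0.47 on the log2 scale. The median over the 7 was 0.05 there. Myh11 (mean 7.31 in wild type and 7.35 in the severe line) and Cnn1 (6.12 and 6.09) stayed near wild type. In the mild line Cspg4 rose by 0.59 and Acta2 fell by 0.55, beside 4.9% of all genes called. The littermates of the mild line had a mean Acta2 value of 12.34 and those of the severe line 12.82, a difference of -0.48 that was not called (limma, adjusted p = 0.0640). Against own littermates the Acta2 difference was 0.38 in the severe line (limma, adjusted p = 0.0426) and -0.32 in the mild line, where it was not called (limma, adjusted p = 0.111). Linear sums of markers weigh the brightest most, and that of these 7 mostly follows Acta2. It was 9854 to 13687 in severe line hearts and 9387 to 9833 in their littermates. In mild line hearts it was 6635 to 7273, and in their littermates 6994 to 7993. Of 8 fibroblast markers, Col1a1 alone rose in the severe line, by 0.48, beside 4.49% of all genes called. In the mild line 0 passed the test (4 at an unadjusted p under 0.05), beside 4.9% of all genes. The medians over the 8 were 0.18 in the severe line and 0.16 in the mild line. Col3a1 had a mean of 8.41 in the severe line and 8.38 in wild type. The summed fibroblast signal was 10690 to 11187 in severe line hearts and 8625 to 9254 in their littermates, and 9570 to 12595 in mild line hearts and 9452 to 10185 in theirs. The part of these cells in the levels of Tnfrsf11b or Tnfrsf12a was not tested.

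Among the receptors with a death domain, Tnfrsf1a, the main receptor of TNF, ran from 6.66 to 6.85 in wild type hearts, from 6.58 to 6.84 in mild line hearts and from 6.69 to 6.86 in severe line hearts. Fas, the receptor of Fas ligand, was more variable, with 7.28 to 7.93 in wild type, 7.38 to 7.63 in mild line hearts and 7.27 to 7.89 in severe line hearts. Tnfrsf10b, a receptor of TRAIL, stayed within 6.46 to 6.67 on all wild type arrays, and its mild line hearts had 6.61, 6.65 and 6.65 and its severe line hearts 6.57, 6.61 and 6.61. Tnfrsf21, also called death receptor 6, had 7.65 to 8.09 in wild type, 7.79 to 7.87 in mild line hearts and 7.61 to 7.90 in severe line hearts. All groups overlapped for these 4 genes. Their differences from wild type were -0.07 to 0.04 on the log2 scale in mild line hearts and -0.04 to 0.03 in severe line hearts. A second, dim feature of Fas differed from wild type by 0.05 in mild line hearts and 0.07 in severe line hearts.

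Tnfrsf1b, the second TNF receptor, which lacks a death domain, had 6.04 to 6.33 in wild type, 6.04 to 6.27 in mild line hearts and 6.19 to 6.24 in severe line hearts, with differences of -0.03 and 0.003. Ltbr, the lymphotoxin beta receptor, which activates NF-kB through TRAF adaptors, had 6.67 to 6.84 in wild type and 6.61, 6.78 and 6.79 in the mild line. In the severe line 2 hearts were above the wild type range, at 7.04 and 7.09, and 1 was inside it at 6.73. The Ltbr difference was 0.18 in the severe line (interval 0.01 to 0.35, limma, adjusted p = 0.309) and -0.04 in the mild line (limma, adjusted p = 0.905). Its severe line hearts had the same order as for Tnfrsf11b at the low end, with replicate 3 lowest for both.

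Tnfsf10, the gene of the death ligand TRAIL, had 2 features of unlike brightness. The brighter ran from 7.00 to 7.50 in wild type, from 7.02 to 7.38 in mild line hearts and from 6.88 to 7.11 in severe line hearts, and the dimmer from 6.01 to 6.36, from 5.97 to 6.29 and from 5.92 to 6.17. In the severe line the difference was -0.16 for the brighter feature (interval -0.40 to 0.07, limma, adjusted p = 0.598) and -0.17 for the dimmer (limma, adjusted p = 0.442). Taking the brightest feature of each gene, the 8 members other than Tnfrsf12a and Tnfrsf11b had 95% intervals that lay between -0.40 and 0.35 in both lines.

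**Figure D2:**
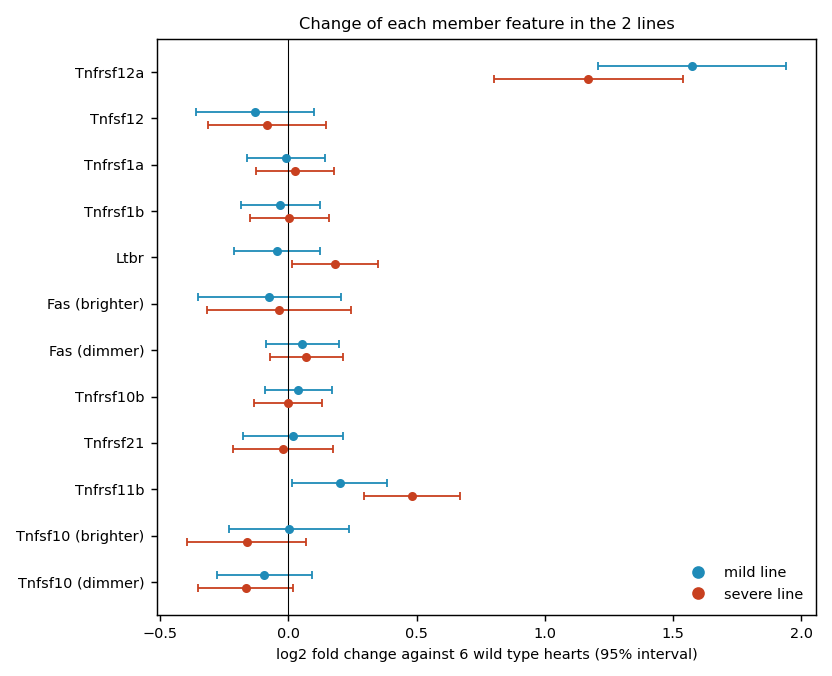
Log2 fold change of the 12 member features against 6 wild type hearts (points, horizontal axis), in the mild line (blue) and severe line (red), with 95% confidence intervals from limma. Tnfrsf12a, on which the set was chosen, is shown as a description, and its intervals are not read as a test. The interval of Tnfrsf11b lies above 0 in both lines, with the larger value in the severe line. That of Ltbr lies above 0 in the severe line only. Of these, only Tnfrsf11b in the severe line was called after adjustment. Apart from Tnfrsf12a and Tnfrsf11b, all intervals lie between -0.40 and 0.35.

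The wider family comprised 20 other receptors and 16 other ligands, of which all receptors and 15 ligands were measured. These genes were mostly dim, since 13 of the 35 were above the median feature (log2 6.25). None of the 20 receptors was called by its brightest feature in the mild line (2 at an unadjusted p under 0.05) or in the severe line (0 at an unadjusted p under 0.05). Of the 15 ligands, 1 fell in mild line hearts and 0 were called in severe line hearts (1 at an unadjusted p under 0.05). Over all genes, 4.9% were called in mild line hearts and 4.49% in severe line hearts. The median difference over the 35 genes was 0.03 in mild line hearts and -0.01 in severe line hearts, and single genes ran from -0.30 to 0.29 and from -0.22 to 0.16. Of the 44 receptor and ligand genes measured other than Tnfrsf12a, Tnfsf13b had the largest difference from wild type in the mild line and Tnfrsf11b in the severe line.

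Tnfsf13b encodes BAFF, a survival factor of B cells. Its log2 signals were 6.62 to 6.81 in wild type and 6.38, 6.39 and 6.56 in the mild line, without overlap. The fall of 0.30 in the mild line (SE 0.069, limma, adjusted p = 0.0167) was lost when mild line replicate 1 was left out (-0.27, adjusted p = 0.113) and when replicate 2 was left out (-0.27, adjusted p = 0.120). In the severe line the difference was -0.14 (limma, adjusted p = 0.417), and the mild minus severe difference of -0.17 was not called (adjusted p = 0.411). Tnfrsf22, a decoy receptor of TRAIL in mice, had 2 features that disagreed. The dimmer had 6.30 to 6.50 in wild type and 6.76, 6.58 and 6.74 in the severe line. Its rise was 0.32 (SE 0.067, limma, adjusted p = 0.00908). This call was lost without severe line replicate 1 (0.29, adjusted p = 0.0836) or 3 (0.30, adjusted p = 0.0595). It was also lost against own littermates (0.30, adjusted p = 0.0501) and with both features averaged (0.12, adjusted p = 0.426). The brighter feature of Tnfrsf22 differed from wild type by -0.08 in the severe line (limma, adjusted p = 0.769).

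Downstream of the receptors, 32 of 36 adaptors and NF-kB pathway genes were measured. In the mild line 1 rose and 0 fell, beside 4.9% of all genes called. In the severe line 0 were called (3 at an unadjusted p under 0.05), beside 4.49% of all genes. The medians were 0.006 and 0.024. The 1 gene was Cflar, encoding the caspase-8 inhibitor FLIP. Its log2 signals were 7.72 to 8.17 in wild type, 8.46, 8.52 and 8.16 in mild line hearts and 8.04, 8.13 and 8.12 in severe line hearts, so that 1 mild line heart lay inside the wild type range. The rise of 0.40 in the mild line (SE 0.10, limma, adjusted p = 0.0301) was lost when mild line replicate 1 was left out (0.36, adjusted p = 0.163), when replicate 2 was (0.33, adjusted p = 0.225) and without littermate replicate 1 of the severe line (0.37, adjusted p = 0.0596). A second, dimmer Cflar feature differed by 0.13 (adjusted p = 0.645), and the lines differed by 0.28 at the brighter feature (adjusted p = 0.308).

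Of 20 known NF-kB target genes 19 were measured. In the mild line 1 rose, beside 4.9% of all genes called. In the severe line 0 were called (2 at an unadjusted p under 0.05), beside 4.49% of all genes. The medians were 0.02 and -0.04. The riser was Ier3, an early response gene that NF-kB and other factors induce. Its log2 signals were 10.27 to 11.02 in wild type, 11.06, 11.27 and 11.49 in mild line hearts and 10.54, 10.36 and 11.17 in severe line hearts. The mild line rise was 0.69 (SE 0.18, limma, adjusted p = 0.0351), and the severe line differed by 0.11 (adjusted p = 0.876). The call for Ier3 ended in 12 of 24 alternative settings, among them the fits that left out mild line replicate 2 (0.69, adjusted p = 0.137) and replicate 3 (0.58, adjusted p = 0.219). It also ended without littermate replicate 1 (0.64, adjusted p = 0.0700) or 2 (0.62, adjusted p = 0.0660) of the severe line and without littermate replicate 1 (0.66, adjusted p = 0.0648) or 2 (0.66, adjusted p = 0.0690) of the mild line. The severe line heart with the highest Tnfrsf12a was also the highest of its line for Ier3.

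**Figure D3:**
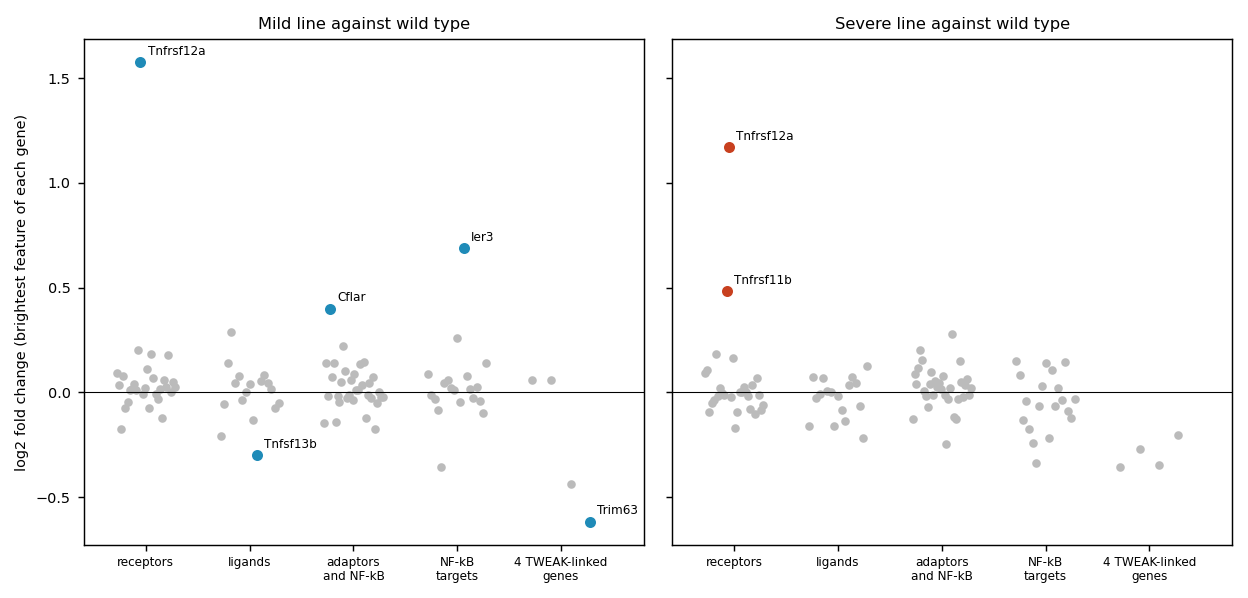
Log2 fold change against wild type (vertical axis) of the brightest feature of each measured gene, in the mild line (left) and severe line (right), for receptors, ligands, adaptors and NF-kB pathway genes, NF-kB targets and 4 genes tied to TWEAK in skeletal muscle. Colored and named points passed an adjusted p under 0.05 and grey points did not. Tnfrsf12a, at 1.57 in mild line hearts and 1.17 in severe line hearts, is the gene on which the set was chosen. Its color is therefore not read as a test.

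The genes Trim63, Fbxo32, Ppargc1a and Cd163 are tied to TWEAK in studies of skeletal muscle and were followed as a list of 4. Trim63 encodes the ubiquitin ligase MuRF1, which is induced by TWEAK in skeletal muscle wasting. Its log2 signals were 9.90 to 10.31 in wild type, 9.54, 9.44 and 9.54 in mild line hearts and 9.90, 10.10 and 9.76 in severe line hearts. It fell in the mild line by 0.62, or 1.53-fold (SE 0.10, limma, adjusted p = 0.000851, lower in 3 of 3 hearts). In the severe line the difference was -0.20 (limma, adjusted p = 0.399), and between the lines it was -0.41 (limma, adjusted p = 0.0998).

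The other 3 genes of this list were called in neither line. Fbxo32, the gene of the second muscle ubiquitin ligase atrogin-1, differed by 0.06 in mild line hearts and -0.27 in severe line hearts. Ppargc1a, encoding the mitochondrial coactivator PGC-1α, had -0.44 (adjusted p = 0.294) and -0.35 (adjusted p = 0.436) at its brighter feature. Cd163, a macrophage scavenger receptor that also binds TWEAK, had 0.06 and -0.36 (adjusted p = 0.920 and 0.161). These values use the pooled controls, whose 2 litter groups had unlike means of Cd163. Between these litter groups 0 of the 4 genes were called by limma (1 at an unadjusted p under 0.05). The mean of Cd163 was 7.12 in mild line hearts and 7.26 in their littermates, and 6.70 in severe line hearts and 6.85 in theirs. As to other cells that could carry these genes, of 7 macrophage markers Mrc1 fell in the mild line by 0.32, beside 4.9% of all genes called. In the severe line 0 were called (0 at an unadjusted p under 0.05), beside 4.49% of all genes. The summed macrophage signal was 3721 to 4426 in wild type, 4025 to 4801 in mild line hearts and 3626 to 5113 in severe line hearts, and its part in these values was not tested.

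Other cell types were followed by their markers as well. Of 8 endothelial, 6 lymphoid and 4 epicardial markers 0 were called by limma in either line, beside 4.9% and 4.49% of all genes. At an unadjusted p under 0.05 these were 0, 1 and 0 in mild line hearts and 1, 0 and 1 in severe line hearts. Of the 7 heart muscle cell markers 3 fell in mild line hearts and 2 fell in severe line hearts. Their summed signal was 91768 to 101581 in mild line hearts and 108373 to 113004 in their littermates, without overlap. It was 101594 to 107584 in severe line hearts and 98400 to 106119 in theirs, with overlap. The pooled wild type hearts, at 98400 to 113004, overlapped with both lines. Such a sum weighs the brightest markers most, and the markers differed in direction. Atp2a2 had a mean of 14.38 in mild line hearts and 14.89 in their littermates. Myl2 (15.01 and 15.02) and Actc1 (14.23 and 14.19) differed little between the same groups. The part of these marker levels in the levels of the members was not tested.

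Genes with values most like those of Tnfrsf12a were found among 12460 features with 1 gene symbol and a mean signal above the median feature, by the Pearson correlation over 12 arrays. The 10 highest were Chmp4c, Nppb, Atpif1, Pdlim1, Antkmt, Trim47, Rras, Dynll1, Sergef and Dipk2a, with r from 0.94 to 0.98. The search took in 7 of the 9 other members, none of which was among the 10. It left out Tnfsf12, Tnfrsf1b and 22 of the 35 wider family genes, which were not above the median feature. The 11 other member features had r from -0.47 to 0.48. All 12 points share the split into transgenic and wild type hearts, which alone raises r for a gene that is higher in both lines. Over deviations from the 4 group means, r of the same 10 genes ran from 0.47 for Sergef to 0.91 for Nppb. The genes were picked by r on these same arrays, so the choice raises this r as well, and it is given as a description.

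Nppb, encoding B-type natriuretic peptide, which heart muscle cells release under load, had the highest r within groups among these 10. Its log2 signals were 12.56, 12.68 and 12.88 in the littermates of the severe line and 12.76, 13.00 and 13.51 in those of the mild line. The severe line had 13.44, 13.35 and 14.56 and the mild line 14.11, 14.43 and 14.48. As for Tnfrsf12a, replicate 3 was the highest heart of the severe line and of both sets of littermates. Chmp4c, a subunit of the ESCRT membrane scission machinery, had r = 0.98 over all arrays and 0.81 within groups. Its log2 signals were 8.27 to 8.55 in wild type, 9.17 to 9.38 in mild line hearts and 8.84 to 9.30 in severe line hearts. Pdlim1, an actin-associated PDZ and LIM domain protein, had 11.02 to 11.28, 12.39 to 12.45 and 11.70 to 12.06. Among the others, Atpif1 encodes the inhibitor of the mitochondrial ATP synthase, Rras a Ras-related GTPase, Dynll1 a light chain of dynein and Antkmt a methyltransferase of the ADP/ATP carrier. Over the 10 genes the log2 difference from wild type was 0.41 for Antkmt to 1.44 for Nppb in the mild line, with 0.29 for Dynll1 and Atpif1 to 0.88 for Nppb in the severe line, given as a description. Mild line hearts lay above every wild type heart for all 10 genes, and severe line hearts for 9 of 10, with Nppb the exception. The genes were picked by r with Tnfrsf12a, for which every transgenic heart was above every wild type heart. That choice alone favors such a separation, so these counts are a description and not a test.

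**Figure D4:**
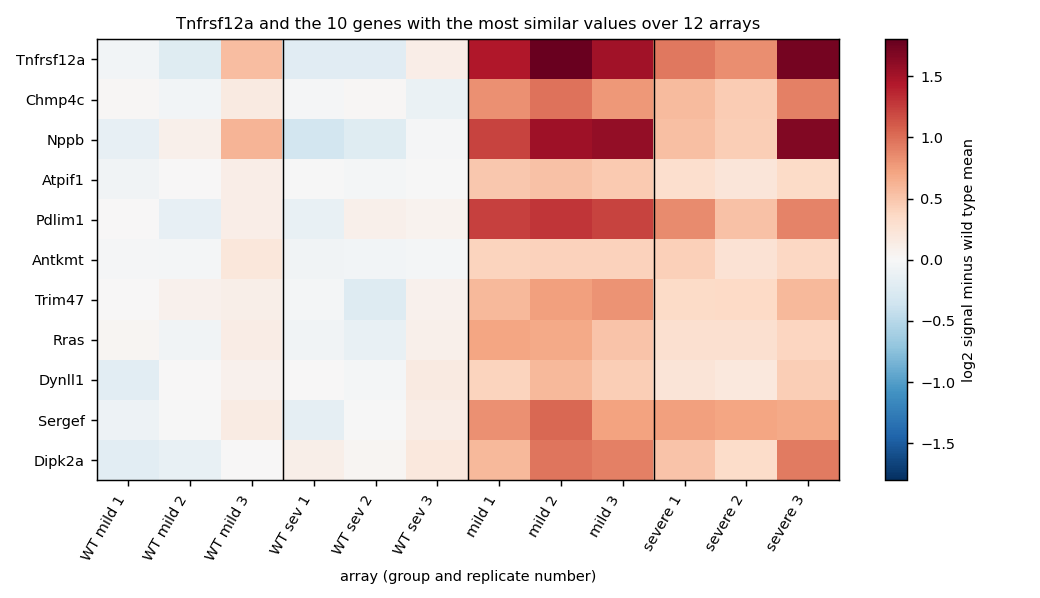
Log2 signal minus the mean of 6 wild type hearts (color) of Tnfrsf12a and of the 10 genes with the highest correlation to it (rows), on 12 arrays (columns, WT mild and WT sev being the wild type littermates of each line). The mild line columns are the most strongly colored for most rows, and severe line replicate 3 stands out within its line for Tnfrsf12a and Nppb, at 11.09 and 14.56 before subtraction.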

How the data were processed

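The authors' deposited raw intensity files hold 1 bead summary per probe for each of 12 Illumina MouseWG-6 v2.0 arrays. The authors' second deposited file gives log2 values that they had background corrected and quantile normalized. The submitters' processing notes name GenomeStudio and limma. Detection p-values were not used here, and the chip and scan of each array are not given in the sources used here.

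Probe IDs that held the same values on all 12 arrays were merged into 30854 features. Background was removed with limma's normal-exponential model (offset 50), arrays were quantile normalized and values were put on the log2 scale. Group means were fitted with limma 3.58.1 in R 4.3.3 with empirical Bayes variances, in 3 groups (6 wild type, 3 mild, 3 severe), or 4 groups for littermate comparisons. P-values were adjusted over all features (Benjamini-Hochberg) and called under 0.05. Counts of genes use each gene's brightest feature. The replicates are separate hearts per the labels, and precision is limited by the number of arrays.

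The members and lists were chosen with earlier results of these data known. Named were all members, receptors and ligands called at any feature, up to 6 adaptors and 4 NF-kB targets called, 4 genes tied to TWEAK and 10 genes by correlation with Tnfrsf12a. Other genes named, such as cell type markers, were chosen after their values were seen. Replicate numbers were checked for pairing. Alternatives were other background corrections, scalings, the authors' table, variance models, a filter on dim features, array weights, averaged features, separate copies, own littermates, a replicate block, fits of 2 groups, the threshold of the study and leaving out each array.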

Additional observations from a re-analysis of the deposited data

Results flagged for a closer look

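In 3 of 30 features examined, 1 wild type heart lay far from the other five, measured as its gap to the nearest heart over the range of all 6. Chance gives this in about 1 in 20 such groups. For Tnfrsf10b the low value of littermate replicate 2 of the severe line (6.46, next to a highest wild type value of 6.67) gave a gap of 0.678 of the range. For Tnfsf13b the same heart was lowest, with a gap of 0.64 of the range. For Antkmt, which was picked for its likeness to Tnfrsf12a, littermate replicate 3 of the mild line was highest, with a gap of 0.879 of the range, and that heart also had the highest wild type value of Tnfrsf12a.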

How the results depend on the processing

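Over 25 alternatives, 12 of which left out 1 array, 1784 values of named features were recomputed. Of these 1751 kept their side of the threshold, 29 lost a call and 4 gained one. No called value changed sign, whereas 93 values that passed no test did. Tnfrsf12a kept its direction in all, with log2 differences of 1.48 to 1.68 in mild line hearts and 0.89 to 1.34 in severe line hearts. The ligand Tnfsf12 ran from -0.23 to -0.08 in mild line hearts and from -0.16 to 0.01 in severe line hearts. Trim63 in the mild line kept its call in all 24 fits (-0.67 to -0.58).

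The count of members called includes Tnfrsf12a, on which the set was chosen, so only its change is read. In the severe line it went from 2 to 1 with the threshold of the study (2-fold), which Tnfrsf11b did not reach. The replicate numbers did not pair the hearts (correlations of same-numbered deviations from -0.24 to 0.06, with 1 of 6 transgenic hearts best matched by its own number). With the replicate number as a block and own littermates, it also came to 1 in the severe line (Tnfrsf11b 0.44, adjusted p = 0.109), Tnfsf13b lost its call in the mild line (-0.32, adjusted p = 0.0747) and the Tnfrsf22 feature lost its own in the severe line (0.30, adjusted p = 0.342). Between the lines, leaving out single arrays gave 0 to 1 members called. For the wider family in the mild line, the count went from 1 to 0 with the block and with the threshold of the study, and leaving out single arrays gave 0 to 1. The adaptor and NF-kB count in the mild line went from 1 to 0 with a background offset of 16, median scaling, features of a gene averaged, own littermates, the block and the threshold of the study, and single arrays left out gave 0 to 1 in mild line hearts and 0 to 1 in severe line hearts. The cause was not tested. The filter on dim features left no value for Tnfsf12. The dim signal of Tnfsf12, below the array median on 11 of 12 arrays, limits what could be seen of the ligand.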
